A study of Mus musculus with 64 samples.

Results

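Occupancy of the genome by TCF7L1 was compared between mouse cells in which expression of SOX2 was maintained and cells in which it was shut off, in the 6 libraries of a doxycycline-controlled SOX2 line (SOX2-TetON) that were immunoprecipitated for TCF7L1. These 6 were chosen by their labels, which call the protein TCF3, from 60 immunoprecipitated libraries with a peak list in a ChIP-seq series of 64 samples. The line descended from HM1 cells of the 129 mouse strain. It was Sox2-/-, the endogenous gene having been disrupted by gene editing. SOX2 came from a doxycycline-driven transgene at the HPRT locus, with the rtTA activator expressed from Rosa26. In SOX2-ON (n = 3 libraries), doxycycline at 1 µg/ml was kept in the medium, and in SOX2-OFF (n = 3) it was withdrawn. By the study's account some SOX2 protein persists after withdrawal, so that SOX2-OFF is a state of low SOX2 and not one without it. Both groups carried the same alleles and went through the same differentiation with FGF, the WNT secretion inhibitor LGK974 and then the WNT pathway agonist CHIR99021, over 72 h. The comparison addresses whether the level of SOX2 changes where a TCF factor is found while WNT signalling is switched on. Every control therefore lacked expression of SOX2 from the endogenous gene, and no library of this comparison came from an unmodified line.

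TCF7L1 is a member of the TCF/LEF family, the DNA-binding partners of β-catenin in canonical WNT signalling. It is known mainly as a repressor that holds WNT target genes down until β-catenin arrives. In pluripotent cells it shares many elements with OCT4, SOX2 and NANOG, and it limits the self-renewal programme. All TCF/LEF proteins carry a high-mobility-group domain that reads CTTTGA followed by A or T, and the SOX proteins carry a related domain that reads the letters CTTTGT or CATTGT. The TCF and SOX letters therefore differ in as little as the last base of CTTTGA and CTTTGT.

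Sequences from the sites described here are shown first, read from the GRCm38 (mm10) reference genome, which is of strain C57BL/6J and not of the 129 strain of the cells. Capitals mark the TCF letters (CTTTGAA or CTTTGAT, on either strand) and the SOX letters (CTTTGT or CATTGT, on either strand). Each line names the nearest protein-coding gene and covers 121 bases centred on a summit. The first 3 lines are from sites found only in SOX2-ON, the next 2 from sites found only in SOX2-OFF, and the last from a site found in all 6 libraries.
Trim42, chr9:97477121-97477241 (+): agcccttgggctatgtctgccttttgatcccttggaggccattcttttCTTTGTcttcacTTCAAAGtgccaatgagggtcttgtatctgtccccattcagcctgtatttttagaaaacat
Myc, chr15:61979027-61979147 (+): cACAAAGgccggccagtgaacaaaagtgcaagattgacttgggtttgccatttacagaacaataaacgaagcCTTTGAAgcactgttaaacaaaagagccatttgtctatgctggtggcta
Pax9, chr12:56887480-56887600 (+): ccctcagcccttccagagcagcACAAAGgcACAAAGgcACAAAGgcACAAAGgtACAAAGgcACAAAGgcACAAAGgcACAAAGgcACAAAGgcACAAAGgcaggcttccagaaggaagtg
Lysmd4, chr7:67183942-67184062 (+): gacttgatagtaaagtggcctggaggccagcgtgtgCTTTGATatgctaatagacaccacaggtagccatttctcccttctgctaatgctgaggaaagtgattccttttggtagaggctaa
Isx, chr8:74295994-74296114 (+): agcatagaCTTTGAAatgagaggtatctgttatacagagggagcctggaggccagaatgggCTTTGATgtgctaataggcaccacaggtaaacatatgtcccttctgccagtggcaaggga
Naa30, chr14:49155688-49155808 (+): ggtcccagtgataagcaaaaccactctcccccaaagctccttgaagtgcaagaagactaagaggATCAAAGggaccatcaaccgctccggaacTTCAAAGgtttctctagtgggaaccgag

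The Trim42 and Myc windows each held 1 match for TCF and 1 for SOX. The Pax9 window held 10 copies of the SOX letters in tandem and no TCF match. The Lysmd4 and Isx windows held TCF letters only, with 1 and 2 matches, as did the Naa30 window with 2.

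A further set is shown because many sites found only in SOX2-OFF shared a longer stretch of sequence. Here capitals mark a shared word of 12 letters, TCCTTTGATGTG in the first pair and AGAGCAGAACCC in the second pair, and the TCF letters.
Pcdh18, chr3:50026165-50026256 (−): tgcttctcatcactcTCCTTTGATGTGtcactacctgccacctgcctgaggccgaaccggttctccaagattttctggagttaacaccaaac
Vmn2r120, chr17:57572070-57572161 (+): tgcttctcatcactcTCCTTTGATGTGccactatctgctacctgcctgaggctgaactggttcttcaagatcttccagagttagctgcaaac
Htr2a, chr14:74263660-74263761 (−): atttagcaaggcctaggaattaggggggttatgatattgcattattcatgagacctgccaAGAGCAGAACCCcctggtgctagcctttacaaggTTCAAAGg
Nyx, chrX:13416696-13416797 (+): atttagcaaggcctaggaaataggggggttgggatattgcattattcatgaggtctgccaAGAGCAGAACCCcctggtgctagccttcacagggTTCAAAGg

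The members of each pair lay on different chromosomes and were alike well beyond the marked word. The first word contains the TCF letters, and the second was followed downstream by TTCAAAG, the TCF letters read on the opposite strand.

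The 6 libraries differed widely in how many peaks they held. The 3 SOX2-ON libraries held 21224, 16482 and 247018 peaks, and the 3 SOX2-OFF libraries held 283822, 38535 and 132330. The mean difference in log10 peak number was −0.41 (SOX2-ON minus SOX2-OFF, two-sided exact permutation p = 0.4), and the states overlapped in list length. The lists carry no read counts, so that sequencing depth is unknown. To compare positions, every library was shortened to its 1628 strongest peaks by the deposited −log10 p-value, the length of the shortest TCF7L1 list in the series. The strength of a peak was taken as its deposited fold, the summit signal divided by the local background. The median fold of the 1628 strongest peaks was 7.33, 24.6 and 47.4 in SOX2-ON and 16.4, 21.2 and 24.1 in SOX2-OFF. Folds were therefore compared after division by that median, and this quotient is called the relative fold.

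SOX2-ON replicate 1 stood apart from the other libraries. Of its peaks, 17891 were narrower than the 76-bp reads, and 63.2% of the sites in its shortened list were found in no other library, against 14.7 to 19.0% in the other 5. The Jaccard index (overlapping bases as a part of all bases covered by either list) was 0.415 between SOX2-ON replicates 2 and 3, but 0.0959 and 0.0693 between replicate 1 and these. The 3 SOX2-OFF pairs reached 0.344, 0.386 and 0.424, and pairs of different states ranged from 0.0616 to 0.248. Pairs of the same state exceeded pairs of different states by 0.122 on average (one-sided exact permutation p = 0.1, the smallest that 3 against 3 allows). Without SOX2-ON replicate 1 this difference was 0.177 (exact permutation p = 0.1). Counts of sites and the main differences are given with and without this library. In this design no two-sided exact test could pass 0.05.

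The 1628-peak lists merged into 4655 sites. TCF7L1 was found in all 3 SOX2-ON and no SOX2-OFF library at 142 sites (3.05% of all merged sites). It was found in all 3 SOX2-OFF and no SOX2-ON library at 237 sites (5.09%), and in all 6 libraries at 197. When SOX2-ON replicate 1 was left out, 482 sites had a peak in both remaining SOX2-ON libraries and none in SOX2-OFF, and 340 of these lacked a peak in replicate 1. Leaving out SOX2-OFF replicate 2 raised the count found only in SOX2-OFF to 379.

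Most of these sites differed in strength rather than in presence. In the full lists of SOX2-OFF, 67, 78 and 85 of the 142 SOX2-ON sites had a peak of some kind. Their median relative folds there were 0.346, 0.331 and 0.299, against 1.09, 1.47 and 1.30 at the 142 sites in SOX2-ON. Of the 142, 34 had no peak in any full SOX2-OFF list. Of the 237 SOX2-OFF sites, 15, 213 and 237 had some peak in the full SOX2-ON lists, so that none was absent from all 3. Their median relative folds in SOX2-ON were 0.678, 0.376 and 0.456, against 1.06, 1.05 and 1.11 in SOX2-OFF. Sites found in all 6 libraries were stronger than either class, with median relative folds of 1.25, 2.07 and 2.06 in SOX2-ON and 1.67, 2.04 and 1.86 in SOX2-OFF. These folds describe sites that were chosen by the same peaks, and carry no test. The cells were bulk cultures, so a site occupied in fewer cells and a site occupied more weakly in each cell cannot be told apart.

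The 8 strongest sites found only in SOX2-ON lay between 1317 and 286482 bp from the nearest gene start. The first, at chr9:97476661-97477912 in an intron of Clstn2 and 107.2 kb from the start of Trim42, had deposited folds of 22.7, 203 and 242 in SOX2-ON and 9.28, 7.41 and 10.1 in SOX2-OFF. A site 50.3 kb from Nfib, which encodes a nuclear factor I transcription factor, at chr4:82755362-82756872, reached 18.7, 132 and 281 in SOX2-ON. In SOX2-OFF it had folds of 7.43 and 11.3 in replicates 1 and 3 and no peak in replicate 2. At these 2 sites every SOX2-ON library, replicate 1 included, lay above every SOX2-OFF library.

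A site 6304 bp from the start of Myc, the growth regulator and WNT target, lay at chr15:61978773-61979445. Its folds were 6.70, 110 and 140 in SOX2-ON, with no peak in SOX2-OFF replicate 1 and folds of 4.17 and 3.50 in replicates 2 and 3. The site with the 10 SOX copies, at chr12:56887298-56887789 in an intron of Slc25a21 and 195.8 kb from Pax9, had folds of 18.7, 87.3 and 162 in SOX2-ON. It was the only 1 of the 8 named SOX2-ON sites without a peak in any full SOX2-OFF list. The remaining named sites were an intron of Abcb5 (chr12:118917659-118918459), 2 sites nearest to the zinc-finger gene Zfp608, and a site near the start of Rcn1, which encodes a calcium-binding protein of the endoplasmic reticulum. Over these 4 the folds ran from 7.73 to 10.7 in SOX2-ON replicate 1, from 85.1 to 101 in replicate 2 and from 110 to 146 in replicate 3, and no peak in SOX2-OFF exceeded 15.3. At Abcb5 and at 1 Zfp608 site SOX2-ON replicate 1 lay below the highest SOX2-OFF fold. All 8 sites also had SOX2, β-catenin and LEF1 peaks in 3 of 3 SOX2-ON libraries, and 7 of the 8 had TCF7L2 peaks in 3 of 3.

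The strongest sites found only in SOX2-OFF had weaker but detectable peaks in SOX2-ON replicates 2 and 3. At chr3:3349493-3350010, nearest to the nuclear receptor gene Hnf4g, the folds were 47.5, 28.3 and 48.1 in SOX2-OFF and 4.12, 7.57 and 18.6 in SOX2-ON. At chr8:74295557-74296488, nearest to the homeobox gene Isx, they were 24.4, 45.9 and 50.2 in SOX2-OFF, and 8.03 and 28.3 in SOX2-ON replicates 2 and 3, with no peak in replicate 1. The raw folds of the 2 states overlapped at Isx, since SOX2-ON replicate 3 was above SOX2-OFF replicate 1. On the relative scale they did not, with 1.49, 2.17 and 2.09 in SOX2-OFF and 0.327 and 0.597 in SOX2-ON. At chr14:74263291-74264267, nearest to the serotonin receptor gene Htr2a, the relative folds were 2.73, 1.73 and 2.27 in SOX2-OFF and 0.409 and 0.481 in SOX2-ON replicates 2 and 3. The site with the TCF word printed above for Pcdh18, a protocadherin gene, had 1.90, 2.14 and 2.43 in SOX2-OFF and 0.632 and 0.599 in SOX2-ON. Lysmd4, B3galt2, Vmn2r120 and Tmem145 completed the 8, and the Tmem145 site (chr7:25303411-25304061) was the 1 in a coding exon. Over all 8, the lowest relative fold in SOX2-OFF was 1.20 and the highest in SOX2-ON was 0.745. The sites were chosen by the same peaks, so this separation is largely part of the choice.

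Sites held in all 6 libraries did not share 1 level. At chr14:49154996-49156286, nearest to the acetyltransferase gene Naa30, the folds were 27.8, 290 and 315 in SOX2-ON and 46.1, 95.7 and 68.5 in SOX2-OFF. In an intron of Lrmda they were 32.0, 134 and 265 against 63.7, 138 and 112. The groups overlapped at both sites on the raw and the relative scale. At the site nearest to Fam227b the folds were 104, 39.3 and 96.5 in SOX2-ON and 191, 118 and 121 in SOX2-OFF, which did not overlap, whereas the relative folds of 14.1, 1.60 and 2.03 and of 11.7, 5.58 and 5.04 did.

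**Figure D1:**
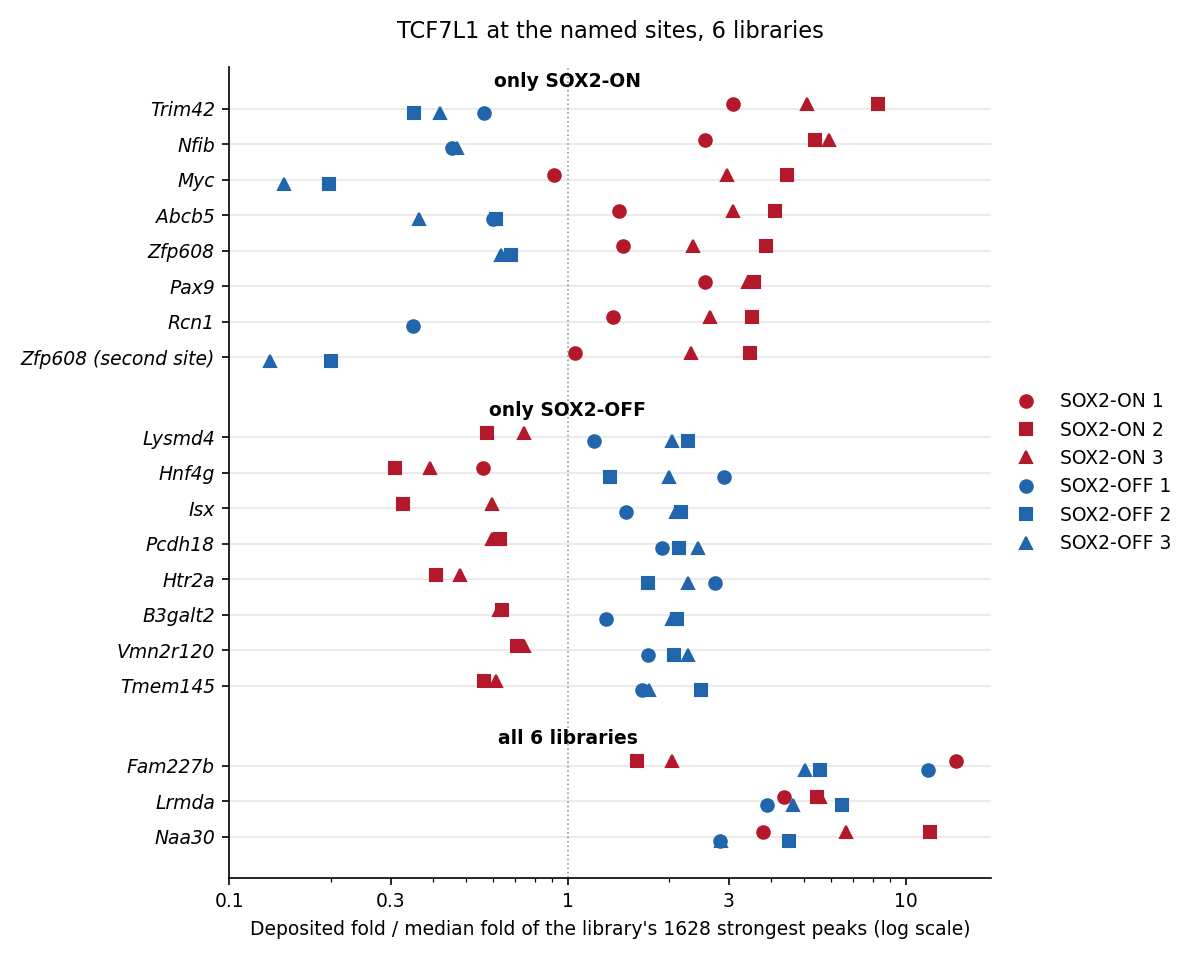
Relative fold (deposited fold over the median fold of the 1628 strongest peaks of the same library, log axis) at the 19 named TCF7L1 sites, 1 marker per library, with SOX2-ON in red and SOX2-OFF in blue, and no marker where a library had no peak. The states do not overlap at the 16 sites found only in 1 state, where SOX2-OFF reaches at most 0.679 at the upper 8 sites, and SOX2-ON reaches at most 0.745 at the middle 8. These 16 were chosen by presence among the 1628 peaks, so the separation is largely part of the choice and no test.

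The 2 classes of site also differed in position, which the choice of sites had not used. The median distance to the nearest start of a protein-coding gene was 77.8 kb at the 142 SOX2-ON sites and 30.5 kb at the 237 SOX2-OFF sites, beside 37.2 kb over all merged sites. Introns held 43.0% of the SOX2-ON sites and 30.0% of the SOX2-OFF sites. Promoters (within 1000 bp of a start) held 2 of the 142 and 8 of the 237. Without SOX2-ON replicate 1 the SOX2-ON class of 482 sites had a median distance of 52.3 kb, with 44.2% in introns and 13 sites (2.70%) at promoters. The promoter share of the 237 SOX2-OFF sites, which were chosen with that library included, was 3.38%. Among the 1628 peaks per library, the promoter share was 3.62, 4.30 and 3.44% in SOX2-ON and 5.34, 8.35 and 4.48% in SOX2-OFF. The groups did not overlap, and the difference was −2.27 percentage points (two-sided exact permutation p = 0.1). With all deposited peaks the sign turned, to 0.567 points.

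Sites with a peak in all 6 full lists allowed a graded comparison. There were 878, and the log2 fold, centred on the median of each library, was tested with limma. At a Benjamini-Hochberg adjusted p below 0.05, 91 sites (10.4% of those tested) were higher in SOX2-ON and 91 (10.4%) were lower. This fit did not pair the libraries. With the replicate number as a block, 135 were higher and 156 lower. The outcome depended on single libraries. It was 317 higher and 293 lower of 3361 sites without SOX2-ON replicate 1, and 0 and 0 of 977 without SOX2-ON replicate 2, where 211 sites had an unadjusted p under 0.05. Without SOX2-ON replicate 3 it was 50 and 41, without SOX2-OFF replicate 2 it was 34 and 38, and without SOX2-OFF replicate 3 it was 34 and 33. With no centring, limma called 0 sites in either direction (47 at an unadjusted p under 0.05).

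The site near Trim42 again stood first among those higher in SOX2-ON, with a log2 difference of 3.32 ± 0.40 (SE, limma adjusted p = 0.00353, higher in 3 of 3 libraries). A site in an intron of Rftn2 (chr1:55198331-55199247) followed, with folds of 7.34, 69.8 and 109 in SOX2-ON and 3.82, 3.36 and 5.36 in SOX2-OFF (log2 difference 2.99 ± 0.40 SE, limma adjusted p = 0.00353). A site 349.5 kb from Bcl11a, a zinc-finger regulator, at chr11:24426556-24428044, had 9.33, 53.5 and 119 against 5.67, 4.45 and 5.45 (log2 difference 2.69 ± 0.37 SE). At all 3 the raw folds of the states did not overlap.

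Lower in SOX2-ON were sites in an intron of the kinase gene Hunk (chr16:90437141-90437887), near the guanylate cyclase gene Gucy1a2 (chr9:3520793-3521882) and in an intron of the carboxypeptidase gene Cpa6 (chr1:10603142-10604093). At Hunk the folds were 3.93, 14.2 and 39.4 in SOX2-ON and 49.3, 64.1 and 85.3 in SOX2-OFF (log2 difference −2.54 ± 0.32 SE). At Gucy1a2 they were 6.27, 29.2 and 54.2 against 100, 98.7 and 110 (−2.49 ± 0.33 SE). At Cpa6 they were 4.98, 21.2 and 50.3 against 64.4, 62.1 and 90.6 (−2.26 ± 0.33 SE, limma adjusted p = 0.00497). The raw folds of the states did not overlap at any of the 3.

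The sites called by limma were unlike in sequence. Of the 91 higher in SOX2-ON, 70 (76.9%) held the SOX letters within 100 bp of the summit and 44.0% the TCF letters. Of the 91 lower, 24 (26.4%) held the SOX letters and 77 (84.6%) the TCF letters. The 696 sites not called lay between, with 46.6% and 63.4%. In the fit without SOX2-ON replicate 1, SOX letters stood at 66.6% of the sites higher and 23.2% of those lower, and TCF letters at 49.5 and 71.0%.

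Across whole lists, 8 short sequences were counted within 100 bp of each summit. The SOX letters were found under 36.1, 58.2 and 57.1% of the 1628 peaks in SOX2-ON and under 32.1, 33.5 and 32.4% in SOX2-OFF (50.5 ± 12.4 against 32.7 ± 0.755, SD, n = 3 each). Windows 5000 bp away held them in 24.7 to 28.1% of cases. The difference was 17.8 percentage points (two-sided exact permutation p = 0.1, adjusted p = 0.114 over 8 sequences), and 24.9 points without SOX2-ON replicate 1. The groups did not overlap in the shares of the 1628 peaks. With up to 5000 peaks per library the difference was 14.7 points (exact permutation p = 0.3). With all deposited peaks it was 8.22 points (exact permutation p = 0.2). Set against their own windows 5000 bp away, SOX2-ON replicate 1 (27.6% there) and SOX2-OFF replicate 2 (25.0%) stood about equally far above, and SOX2-ON replicates 2 and 3 (28.1 and 27.0%) farther.

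The TCF letters showed the opposite order. They were found under 23.5, 57.9 and 58.1% of peaks in SOX2-ON and under 60.2, 68.2 and 67.9% in SOX2-OFF, beside 8.35 to 9.28% at 5000 bp. The difference of −18.9 points (two-sided exact permutation p = 0.1, adjusted p = 0.114) fell to −7.42 points without SOX2-ON replicate 1 (exact permutation p = 0.2). The letters CAGCAGG, read by ZIC factors, were found under 9.77, 15.05 and 20.3% of SOX2-ON peaks and 23.3, 23.5 and 27.2% of SOX2-OFF peaks (difference −9.62 points, exact permutation p = 0.1). For the TCF and ZIC letters the sign turned with all deposited peaks, to 5.02 and 1.28 points.

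The other 5 sequences differed by at most 2.68 points. KLF (GGNGTGG) and the T-box letters (GGTGTG) were less frequent in SOX2-ON, by 2.50 and 2.68 points, and FOXH1 (ATNCACA) and CDX (TTTATGG or TTTATTG) more frequent, by 2.38 and 1.88 points (exact permutation p = 0.1 each, adjusted p = 0.114). FOXH1 and CDX letters stood below their level 5000 bp away in all 6 libraries. The OCT letters (ATGCAAA) differed by 0.573 points (exact permutation p = 0.8).

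**Figure D2:**
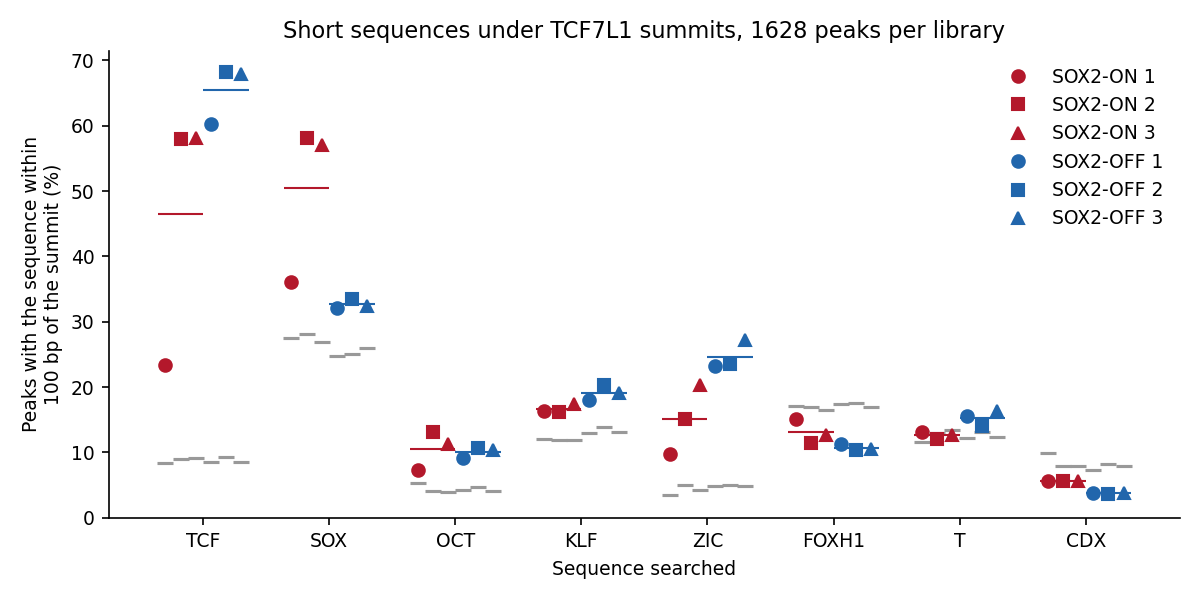
Share of the 1628 strongest peaks of each library with each of 8 sequences within 100 bp of the summit, in percent, with 1 marker per library (SOX2-ON red, SOX2-OFF blue), group means as bars and grey marks for windows 5000 bp away. SOX letters lie between 36.1 and 58.2% in SOX2-ON and between 32.1 and 33.5% in SOX2-OFF, and TCF letters between 23.5 and 58.1% against 60.2 and 68.2%.

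The same order held at the classes of site. SOX letters were found at 81.7% of the 142 SOX2-ON sites, 50.3% of the 197 sites in all 6 libraries and 21.5% of the 237 SOX2-OFF sites. Windows 5000 bp away held them at 28.9, 27.4 and 20.7% of the 3 classes. TCF letters were found at 49.3, 75.1 and 77.2%, and ZIC letters at 11.3, 21.3 and 36.3%. Among the 482 sites found without SOX2-ON replicate 1, 73.7% held SOX and 50.6% TCF letters.

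Other proteins of the same cells were then set against the 2 classes of TCF7L1 site. SOX2 itself had a peak at 98.6, 97.2 and 99.3% of the 142 SOX2-ON sites in its SOX2-ON libraries, and at 24.6, 26.1 and 35.9% in its SOX2-OFF libraries. β-catenin was found at 97.2, 100 and 97.9% of them in SOX2-ON and at 7.04, 10.6 and 9.86% in SOX2-OFF. In neither protein did the groups overlap. LEF1 was found at 78.9, 95.1 and 77.5% against 2.11, 2.11 and 3.52%, and TCF7L2 at 41.5, 50 and 50% against 1.41, 0.704 and 3.52%. TCF7L2 was therefore at fewer of the sites than the other proteins in SOX2-ON, on a list of similar length to that of LEF1. The difference was 69.5 percentage points in the SOX2 libraries, 89.2 in those of β-catenin, 81.2 in those of LEF1 and 45.3 in those of TCF7L2 (two-sided exact permutation p = 0.1 each, adjusted p = 0.1 over 8). At the 482 sites found without TCF7L1 SOX2-ON replicate 1 the differences were 60.4, 80.9, 64.2 and 24.1 points. The TCF7L2 difference was 5.98 points at 500 peaks per library, 15.2 at 1000 and 28.2 at up to 5000. These settings also redrew the TCF7L1 sites, which then numbered 78, 116 and 221.

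At the 237 SOX2-OFF sites the direction was reversed for all 4. β-catenin was found at 35.4, 40.1 and 54.4% of the sites in SOX2-ON and at 94.9, 96.2 and 98.3% in SOX2-OFF. LEF1 was found at 10.1, 20.3 and 14.3% against 61.6, 63.7 and 79.3%, and TCF7L2 at 4.22, 4.64 and 6.33% against 29.1, 44.3 and 34.2%. SOX2 libraries had peaks at 15.6, 14.3 and 19.8% of them in SOX2-ON and at 62.4, 56.1 and 93.2% in SOX2-OFF. The groups did not overlap for any protein. The difference was −54.0 points in the SOX2 libraries, −53.2 in those of β-catenin, −53.3 in those of LEF1 and −30.8 in those of TCF7L2 (two-sided exact permutation p = 0.1 each, adjusted p = 0.1). Each SOX2 library, of either state, entered with its 20000 strongest peaks, and with at most 500, 1000 and up to 5000 the SOX2 difference was −20.0, −24.2 and −29.9 points. With all deposited peaks it was −24.3 points (exact permutation p = 0.2), and the differences of β-catenin, LEF1 and TCF7L2 were −19.3, −9.84 and −5.51 points (exact permutation p = 0.3, 0.5 and 0.9). The TCF7L2 difference was −1.18 points at 500 peaks (exact permutation p = 0.4), −6.63 at 1000 and −12.6 at up to 5000. All these settings also redrew the TCF7L1 sites. They numbered 85, 176 and 284 with at most 500, 1000 and up to 5000 peaks, and 393 with all deposited peaks.

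TCF7L1 libraries of the wild-type control, the HM1 TetON parent line with its endogenous Sox2, which had no part in choosing the sites, were available for naive ESC, pluripotent cells, and for CEpiLC, cells with features of the caudal epiblast. By the study's methods, naive ESC were cultured with CHIR99021 and PD0325901. CEpiLC were differentiated with FGF, LGK974 and then CHIR99021, so these groups differ in medium too. TCF7L1 was found at 54.9, 52.1 and 52.1% of the SOX2-ON sites in naive ESC and at 8.45, 8.45 and 2.82% in CEpiLC (difference 46.5 points, two-sided exact permutation p = 0.1). At the SOX2-OFF sites it was found at 16.5, 13.9 and 16.9% in naive ESC and at 35.9, 67.5 and 73.4% in CEpiLC (difference −43.2 points, exact permutation p = 0.1). With all deposited peaks, where 393 sites were found only in SOX2-OFF, the second difference turned to 8.65 points. CEpiLC replicate 1, the lowest of the 3, had 50.2% of its summits in soft-masked repeats.

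**Figure D3:**
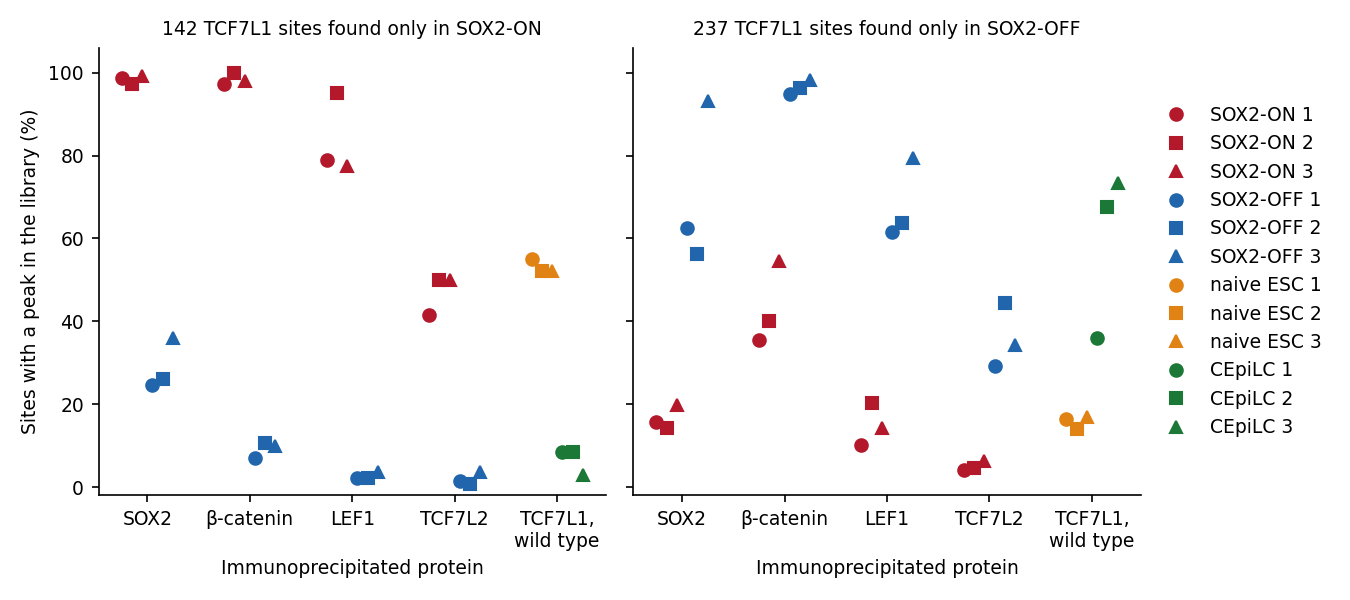
Share of the 142 TCF7L1 sites found only in SOX2-ON (left) and of the 237 found only in SOX2-OFF (right) that had a peak of another immunoprecipitated protein, or of TCF7L1 in wild-type cells, in percent, with 1 marker per library. β-catenin libraries lie between 97.2 and 100% in SOX2-ON and between 7.04 and 10.6% in SOX2-OFF on the left, and between 35.4 and 54.4% against 94.9 and 98.3% on the right.

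In the reverse reading, sites were defined by other libraries and TCF7L1 was counted at them. At 685 β-catenin sites found only in SOX2-ON, TCF7L1 had a peak at 20.4, 61.5 and 57.7% in SOX2-ON and at 1.31, 1.02 and 0.876% in SOX2-OFF. At 402 β-catenin sites found only in SOX2-OFF, the shares were 1.49, 0.746 and 1.74% in SOX2-ON and 39.1, 33.8 and 49.0% in SOX2-OFF. In these lists TCF7L1 followed the state in which β-catenin was found at both sets (differences 45.5 and −39.3 points, two-sided exact permutation p = 0.1, adjusted p = 0.12 over 6). With all deposited peaks, which redrew the sites, the differences were 41.4 points (exact permutation p = 0.4) and −44.7 points (exact permutation p = 0.1). At 4100 SOX2 sites found only in SOX2-ON, TCF7L1 was at 2.83, 8.20 and 7.05% in SOX2-ON and 0.122, 0.195 and 0.146% in SOX2-OFF, and at 675 SOX2 sites found only in SOX2-OFF, at 2.52, 5.04 and 6.67% against 21.3, 21.8 and 23.4%. The groups did not overlap at any of these 4 sets. The difference at the 4100 sites was 5.87 points. With lists of at most 500, 1000 and up to 5000 peaks it was 30.7, 30.8 and 36.8 points at the SOX2 sites then found only in SOX2-ON. With all deposited peaks it was 25.1 points, and −18.3 points at SOX2 sites found only in SOX2-OFF (exact permutation p = 0.3 each). Those settings changed the SOX2 lists, the TCF7L1 lists and the sites together, so their parts cannot be told apart.

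Sites defined by wild-type TCF7L1 gave a less even result. At 275 sites found only in CEpiLC, TCF7L1 was at 12.7, 25.5 and 36.0% in SOX2-ON and at 73.5, 66.9 and 83.6% in SOX2-OFF (difference −49.9 points, two-sided exact permutation p = 0.1, adjusted p = 0.12). At 755 sites found only in naive ESC it was at 11.7, 34.6 and 33.6% against 10.5, 12.7 and 12.3%. Here SOX2-ON replicate 1 fell among the SOX2-OFF libraries (difference 14.8 points, exact permutation p = 0.3), and without it the difference was 22.3 points (exact permutation p = 0.1). With all deposited peaks the differences were −34.2 points at CEpiLC sites (exact permutation p = 0.2) and 11.4 points at naive ESC sites (exact permutation p = 0.7).

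TCF7L1 was next read at genes, each locus taken as the gene and 10 kb upstream. Of 21938 protein-coding genes, 2182 (9.95%) had a peak of a 1628-peak list in at least 1 library. At 69 (0.315%) the peak was in all 3 SOX2-ON and no SOX2-OFF library, at 92 (0.419%) the reverse, and at 168 in all 6. Without SOX2-ON replicate 1 the first count was 193, and without SOX2-OFF replicate 1 the second was 141. Values below are the highest fold in the locus in the full list of each library. Loci found only in 1 state were chosen by the same peaks, so separate relative folds there are largely part of the choice.

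Of 22 naive and core pluripotency genes, 8 had a peak in at least 1 library, 1 was found only in SOX2-ON and none only in SOX2-OFF. The 1 was Klf2 (locus chr8:72309033-72321656), a transcription factor of naive pluripotency, with folds of 8.77, 53.1 and 86.7 in SOX2-ON and 3.73, 9.75 and 10.5 in SOX2-OFF. The raw values met, SOX2-ON replicate 1 falling below 2 SOX2-OFF libraries, while the relative folds were apart at 1.20, 2.16 and 1.83 against 0.228, 0.461 and 0.437. Pou5f1, which encodes OCT4, had a peak in all 6 libraries, with relative folds of 1.05, 0.830 and 1.48 against 1.04, 0.775 and 0.793. At the Sox2 locus (chr3:34640405-34652461) no library had a peak among its 1628.

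Of 20 genes of the WNT pathway and its feedback, 14 had a peak in at least 1 library and 5 in all 6. Myc was the 1 found only in SOX2-ON, with locus folds of 6.70, 110 and 140 against 4.91, 4.53 and 4.17. No gene was found only in SOX2-OFF. The cell cycle gene Ccnd1 had a peak in 3 SOX2-OFF libraries and 1 SOX2-ON library. Its folds were 20.2 and 18.6 in SOX2-ON replicates 2 and 3, with no peak in replicate 1, and 17.3, 35.1 and 27.3 in SOX2-OFF, and these ranges overlapped. The relative folds, 0.822 and 0.393 against 1.06, 1.66 and 1.13, did not.

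Sp5, Znrf3 and Axin2 of the WNT list had a peak in the shortened lists of all 6 libraries, but not every gene of that list did. Nkd1 had one in 2 SOX2-ON libraries and no SOX2-OFF library, with folds of 9.67, 10.6 and 73.2 against 6.86, 4.37 and 7.15. Dkk1 had one in 2 SOX2-OFF libraries and Rnf43 in 1, and neither gene had one in SOX2-ON. Notum, Nkd2 and Apcdd1 had none in any shortened list. Sp5, a transcriptional repressor induced by WNT, had folds of 8.30, 48.0 and 82.1 in SOX2-ON and 33.3, 48.3 and 52.9 in SOX2-OFF. Znrf3, a ubiquitin ligase that removes WNT receptors, had 8.26, 47.5 and 97.4 against 40.4, 41.1 and 65.8, and Axin2, a scaffold of the β-catenin destruction complex, 7.61, 30.5 and 57.1 against 12.8, 28.2 and 29.8. Raw folds overlapped at all 3. On the relative scale Axin2 and Znrf3 still overlapped, and Sp5 was lower in every SOX2-ON library (1.13, 1.95 and 1.73) than in any SOX2-OFF library (2.04, 2.28 and 2.20). The nearest values, 1.95 and 2.04, lay close together. SOX2-ON replicate 1 read low at strong sites on this scale. Its median at sites in all 6 libraries was 1.25, against 1.67 to 2.07 in the others. Tcf7l2, the gene of another TCF factor, also had no overlap on that scale, with 1.00, 0.724 and 0.695 against 1.52, 1.83 and 1.40. The locus of Tcf7l1 itself had its highest folds in SOX2-ON replicate 1 (131) and SOX2-OFF replicate 1 (46.0), and those peaks lay over exons of the gene. Tfap2a and Tfap2c also had strong peaks over exons in the libraries of replicate 1. Their highest folds were 159 and 47.0 in SOX2-ON and 113 and 58.7 in SOX2-OFF. Tcf7l2 had no exon peak in SOX2-ON replicate 1 and a highest fold over exons of 4.14 in SOX2-OFF replicate 1.

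Of 19 primitive streak and mesendoderm genes, 10 had a peak in at least 1 library. Of these, 1 had a peak in more SOX2-ON than SOX2-OFF libraries and 8 in more SOX2-OFF libraries, beside 957 and 896 over all protein-coding genes. Lefty1, Tbx6 and T counted among the 8 through a peak in 1 SOX2-OFF library each. The same counts were 4 and 3 for the pluripotency list and 3 and 6 for the WNT list. They were 4 and 5 for the caudal epiblast list and 1 and 1 for the neural list. No difference between lists was tested. Eomes (locus chr9:118468212-118486132), a T-box factor of early mesendoderm, was found only in SOX2-OFF, with folds of 16.8, 37.6 and 22.3 against 9.15 and 36.1 in SOX2-ON replicates 2 and 3 and no peak in replicate 1. Nodal, the TGF-β ligand of the streak, was found in 3 SOX2-OFF libraries and 1 SOX2-ON library, with relative folds of 1.56, 1.59 and 1.01 against 0.778 and 0.610. Snai1, a repressor of epithelial genes, was found only in SOX2-ON, with folds of 7.64, 23.3 and 33.2 against 3.54, 6.95 and 6.24, which did not overlap.

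Of 21 caudal epiblast genes, 12 had a peak in at least 1 library, with 1 found only in SOX2-ON and none only in SOX2-OFF. The 1 was Cdx4 (locus chrX:103311398-103330592), with folds of 10.0, 38.6 and 58.0 in SOX2-ON, 4.37 and 6.12 in SOX2-OFF replicates 1 and 3 and no peak in replicate 2. Its paralogs Cdx1 and Cdx2, caudal homeobox regulators too, had a peak in all 6 libraries. Relative folds at Cdx2 were 1.60, 2.71 and 2.90 in SOX2-ON and 0.568, 1.06 and 1.45 in SOX2-OFF and did not overlap, while at Cdx1 they were 1.31, 3.69 and 2.72 against 3.86, 2.94 and 4.20 and overlapped. The 3 paralogs thus gave 3 different patterns. Wnt5b, a WNT ligand, was found in all 6 libraries with overlapping relative folds of 1.05, 1.71 and 1.63 against 0.797, 1.72 and 0.860.

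Of 20 neural and preneural genes, 3 had a peak in at least 1 library, and none was found only in 1 state. Gbx2, a homeobox gene of the posterior neural plate and of pluripotent cells, was found in all 6, with relative folds of 1.70, 2.42 and 1.80 against 1.89, 1.91 and 1.43.

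**Figure D4:**
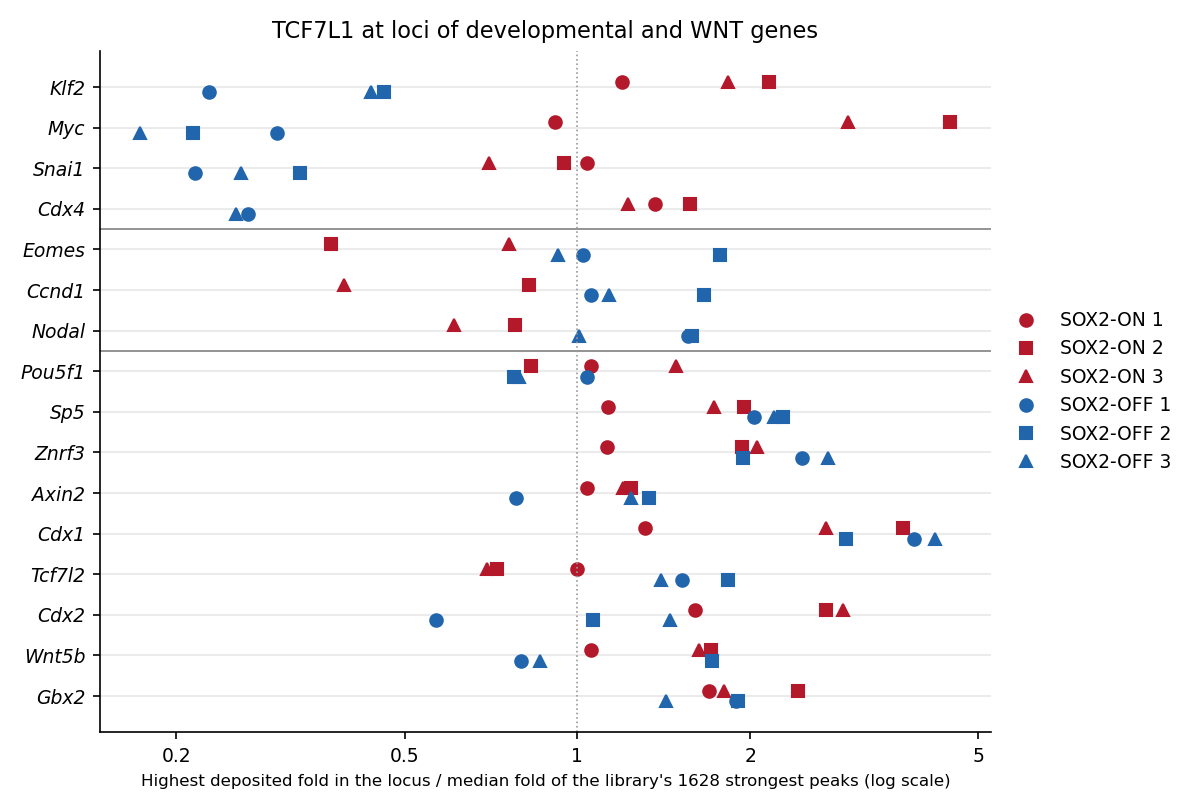
Highest deposited fold in each named locus over the median fold of the 1628 strongest peaks of the same library (log axis), with 1 marker per library, SOX2-ON in red and SOX2-OFF in blue, and no marker where a library had no peak. The upper 4 loci were found only in SOX2-ON, the middle 3 in 3 SOX2-OFF libraries and at most 1 SOX2-ON library, and the lower 9 in all 6 libraries.

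Repeated sequence was unevenly spread over the 2 classes of site. The summit lay in a soft-masked base, the genome's own mark of repeats, at 17 of the 142 SOX2-ON sites (11.97%), 25 of the 197 sites in all 6 libraries (12.7%) and 96 of the 237 SOX2-OFF sites (40.5%). The single base 5000 bp from the summit was masked in 33.8, 30.5 and 29.5% of cases. Both the SOX2-ON sites and the sites in all 6 libraries therefore stood below their surroundings, and the SOX2-OFF sites above theirs. Over the 1628 peaks per library the masked share was 25.9, 20.0 and 19.7% in SOX2-ON and 32.2, 26.6 and 27.0% in SOX2-OFF (two-sided exact permutation p = 0.1, adjusted p = 0.2 over 6 comparisons).

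Within 100 bp of the summits, many SOX2-OFF sites shared words of 12 letters. These words were found after the sites had been seen, so their counts at the sites are descriptions. TCCTTTGATGTG stood at 47 of the 237 SOX2-OFF sites (19.8%), at none of the 142 SOX2-ON sites and at 6 of the 197 sites in all 6 libraries. AGAGCAGAACCC stood at 33, none and 1, and the third, ACAGCAGGTGGC, which contains the ZIC letters, at 44, none and 8. At least 1 of the 3 words was at 98 of the 237 SOX2-OFF sites (41.4%), and 72 of these 98 were soft-masked. Of the 237 windows 5000 bp away, 1 held a word. The most frequent word at SOX2-ON sites, ACAATGGCCTAG, stood at 7 of 142 (4.93%).

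The printed pairs are examples of such sites. The Pcdh18 and Vmn2r120 lines carry the first word, with folds of 31.1, 45.3 and 58.4 and of 28.4, 43.6 and 54.7 in SOX2-OFF. The Htr2a and Nyx lines carry the second, with folds of 44.8, 36.6 and 54.7 and of 16.9, 39.8 and 48.6. None of the 4 had a peak in SOX2-ON replicate 1, and all had a lower fold in SOX2-ON replicate 2 than in any SOX2-OFF library. SOX2-ON replicate 3, with 28.4, 35.3, 22.8 and 36.9, lay above SOX2-OFF replicate 1 at Vmn2r120 and Nyx and below every SOX2-OFF library at the other two.

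Most copies of these words in the genome were not among the strongest peaks. The genome held 1289 copies of the first word, and peaks of the 1628-peak lists covered 8, 33 and 44 of them in SOX2-ON and 122, 110 and 134 in SOX2-OFF. Of 946 copies of the second word, 1, 9 and 19 were covered in SOX2-ON and 78, 61 and 96 in SOX2-OFF. Peaks of the full lists covered 20, 149 and 294 copies of the first word in SOX2-ON and 223, 215 and 269 in SOX2-OFF, and 4, 77 and 208 copies of the second against 182, 148 and 229. In the full lists SOX2-ON replicate 3 thus overlapped with or exceeded the SOX2-OFF libraries. As a share of the 1628 peaks, any word was found in 0.860, 2.95 and 4.24% of SOX2-ON peaks and 14.6, 12.2 and 16.2% of SOX2-OFF peaks.

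The words were chosen at TCF7L1 sites found only in SOX2-OFF. Other proteins of the same cells shared many of these sites, β-catenin 96 of the 98 with a word. Their libraries are therefore no separate measure, and the direction below was largely set by that choice. Among β-catenin peaks a word was found in 3.68, 3.71 and 4.70% in SOX2-ON and in 11.9, 8.88 and 12.9% in SOX2-OFF. LEF1 gave 0.990, 1.78 and 1.46% against 5.29, 4.37 and 7.22%, and TCF7L2 0.218, 0.266 and 0.508% against 2.10, 2.88 and 2.73%. SOX2 peaks held a word least often, in 0.160, 0.105 and 0.215% against 0.995, 0.625 and 1.96%. The groups did not overlap for any of the 4 proteins (two-sided exact permutation p = 0.1 each, adjusted p = 0.125 over 5). In wild-type TCF7L1 libraries the second word was in 0.0614, 0.0614 and 0% of naive ESC peaks and in 1.60, 4.61 and 4.85% of CEpiLC peaks. Any word was in 5.47, 4.73 and 5.22% against 4.86, 13.3 and 15.2%, which overlapped (exact permutation p = 0.3).

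SOX2-OFF sites with a word differed from those without in what else they held. Of the 98 with a word, 88.8% held TCF letters and 55.1% ZIC letters, against 69.1 and 23.0% of the 139 without. Both sequences are part of the words themselves. SOX letters were at 16.3 and 25.2%. LEF1 had a peak in all 3 of its SOX2-OFF libraries at 70 of the 98 (71.4%) and at 36 of the 139 (25.9%), and β-catenin at 96 (98.0%) and 122 (87.8%). None of the 98 lay at a promoter, against 8 of the 139, and the median distance to a gene start was 48.1 and 23.5 kb. The 98 lay on 19 chromosomes.

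**Figure D5:**
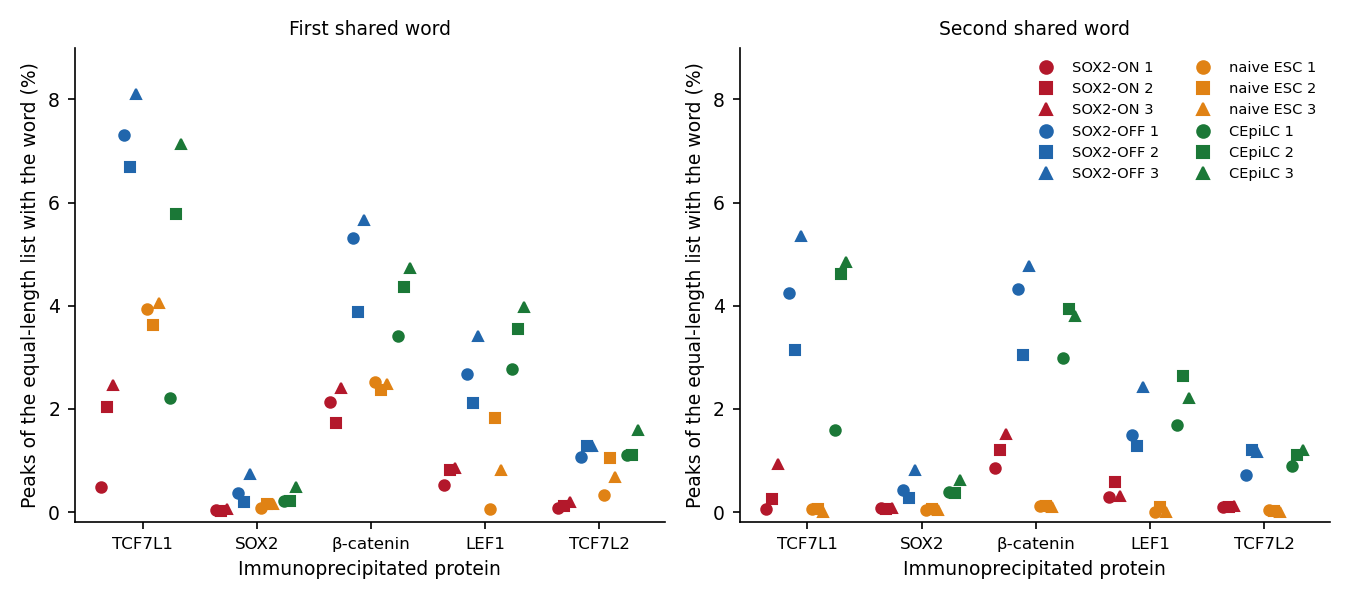
Share of the strongest peaks of each library that held TCCTTTGATGTG (left) or AGAGCAGAACCC (right) within 100 bp of the summit, in percent, for 5 immunoprecipitated proteins, with 1 marker per library (SOX2-ON red, SOX2-OFF blue, naive ESC orange, CEpiLC green). TCF7L1 SOX2-OFF libraries lie between 6.70 and 8.11% for the first word and 3.13 and 5.34% for the second, against 0.491 to 2.46% and 0.0614 to 0.921% in SOX2-ON.

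Without the peaks that carried a word, an alternative added after the data were seen, the SOX2-ON class had 139 sites and the SOX2-OFF class 188. The difference in TCF letters was then −14.7 points (exact permutation p = 0.3) and that in ZIC letters −5.96 points (exact permutation p = 0.2). Without peaks whose summit was soft-masked, 148 sites were found only in SOX2-OFF. The part of repeated sequence in the differences between the states was not tested beyond these values.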

How the data were processed

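ChIP-seq libraries of TCF7L1 were compared between SOX2-ON and SOX2-OFF, with 3 libraries each, and libraries of SOX2, β-catenin, LEF1, TCF7L2 and wild-type TCF7L1 were read at the same sites. Cells had been fixed with a protein cross-linker and formaldehyde, and reads were single-end and 76 bp long. By the study's methods, the authors ran the nf-core ChIP-seq pipeline, aligned with BWA to mm10 and called narrow peaks with MACS2 at q below 0.05, per library and without pooling replicates. Which input each list was called against is not given in the sources used here. The deposited fold is the ratio of summit signal to local background, and the deposited −log10 p-value, −log10 q-value and score of each peak are the authors' MACS2 values. The fold and the −log10 p-value were used, and the −log10 q-value only in 1 alternative. The authors' own test of read counts was not used, since the lists hold no counts, and no interval for counting error can be given. No other columns of per-sample values were left unused (0).

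Lists were shortened to equal length by −log10 p-value (TCF7L1 1628, SOX2 20000, β-catenin 3423, LEF1 4443 and TCF7L2 4134 peaks) and peaks sharing at least 1 bp were merged into sites. Letters were searched on both strands within 100 bp of the summit, with windows 5000 bp away for comparison. Genes were taken from a GENCODE basic annotation of GRCm38. Libraries were compared by exact permutation of the 20 assignments of 3 against 3 (smallest two-sided p = 0.1), with Benjamini-Hochberg adjustment within each family of tests. limma (3.58.1, R 4.3.3) was fitted to the median-centred log2 deposited fold. Python 3.11.15 with numpy 2.4.6, pandas 2.3.3, scipy 1.17.1 and pyfaidx 0.9.0.4 was used, and the code was tested on simulated data.

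Named were the 8 sites per state that ranked first by median deposited fold among sites found only there, the 3 sites in all 6 lists with the highest lowest fold, and the 3 sites per direction with the lowest limma p. Also named were genes of 5 lists whose locus had a peak in 3 libraries of one state and at most 1 of the other, and up to 3 per list with a peak in all 6. One result under this rule is not reported here. Tfap2a, Tfap2c, Tcf7l1 and Tcf7l2 are named as a check on peaks over exons, coding or not, in replicate 1. Further genes, shared words and the soft-masked share were chosen after their values were seen. The members and lists were chosen with earlier results of these data known. The labels give replicate numbers in both groups. Deviations from the group means correlated at 0.394, 0.378 and 0.309 between libraries with the same number and at −0.354 to −0.0217 otherwise. The numbers were used as a block in 1 alternative only. The exact p-values in the Results and the main limma fit treat the libraries as unpaired. With the block the smallest exact p is 0.25. The labels call the libraries biological replicates and say no more of their source, so p-values measure the spread between these libraries. Alternatives were other list lengths, windows, promoter and locus limits, overlap rules, scalings, a replicate block and leaving out each library.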

Additional observations from a re-analysis of the deposited data

How the results depend on the processing

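Over 33 results, 694 values were computed under alternatives, and 652 were counted as unchanged. Counts of sites and loci were judged by size. Values by exact test had only to keep their sign, since none could pass an adjusted p of 0.05. The TCF7L2 difference at SOX2-OFF sites thus counted as unchanged at −1.18 points with at most 500 peaks, against −30.8. For values by exact test the 652 is therefore no measure of stability in size. With all deposited peaks the sign turned for replicate agreement (−0.00109), for the differences in TCF (5.02 points), KLF (0.546), ZIC (1.28), FOXH1 (−0.700) and CDX letters (−0.442), for the promoter share (0.567) and for wild-type TCF7L1 at SOX2-OFF sites (8.65). The OCT difference turned to −0.696 without SOX2-ON replicate 2, −0.348 within 250 bp of the summit, −0.0614 without peaks that carried a shared word and −0.512 without soft-masked summits. The cause was not tested.

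Sites found only in SOX2-ON numbered 78 with at most 500 peaks, 221 with up to 5000, 305 with all deposited peaks and 34 when absence was required in full lists, and sites found only in SOX2-OFF numbered 85 with at most 500, 393 with all, 0 with absence in full lists and 148 without soft-masked summits. Loci found only in SOX2-ON numbered 38 with at most 500 peaks and 5 with all, and loci found only in SOX2-OFF 40 with at most 500 and 215 with 50 kb upstream. limma calls lower in SOX2-ON numbered 58 with quantile normalization, and both directions gave 0 with no centring, which moved the median log2 difference of all sites from −0.08 to 0.15.

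With the replicate block, limma called 156 sites lower and 135 higher, and the block changed no other call. For the values by exact test the block allows 8 swaps and a smallest p of 0.25, so that no call on them could change.

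Leaving out 1 library at a time gave 147 to 482 sites and 73 to 193 loci found only in SOX2-ON (482 and 193 without SOX2-ON replicate 1), and 271 to 379 sites and 114 to 141 loci found only in SOX2-OFF (379 without SOX2-OFF replicate 2, 141 without SOX2-OFF replicate 1). limma called 0 to 317 sites higher and 0 to 293 lower. The OCT difference ran from −0.696 to 2.22 points, and that in TCF letters from −24.7 to −7.42.

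The limits are list based. A site without a peak is not shown to be unbound, since read depth is unknown and list lengths differed between libraries, and 3 against 3 libraries cannot pass 0.05 in an exact test.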
